A study of Mus musculus with 10 samples.

Results

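*Nos1ap* and *Gm7694* are neighbouring mouse genes on the same strand of chromosome 1, and the 3′ end of one annotated *Nos1ap* transcript lies within *Gm7694*. They are 2 of the 23195 genes, 16973 of them protein coding, in a comparison of *Nos1ap* null with wild-type hearts. Both were chosen by name with their difference in this comparison already known, so their values are given as a description. The fit across all genes includes them, and their calls there follow from this choice. The data are stranded polyA RNA-seq libraries of heart tissue from male embryos at embryonic day 13.5, 5 wild type and 5 *Nos1ap* null, of the strain labelled C57BL6/J. The null embryos were homozygous for the tm1d allele, a constitutive deletion of exon 4 of *Nos1ap* by Cre recombinase. The allele derives from C57BL/6N embryonic stem cells, was produced with CMV-Cre and ACTB-Flpe mice and was kept by backcrossing to C57BL/6J, and *lacZ* and *neo* cassettes are absent from it. The deletion and any linked sequence carried along with the allele cannot be told apart.

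NOS1AP, also known as CAPON, is an adaptor protein. It carries a phosphotyrosine-binding domain near its amino terminus and ends in a motif that binds the PDZ domain of neuronal nitric oxide synthase, the product of *Nos1*, and so links this enzyme to other proteins. Common variants at the human gene are associated with the length of the QT interval, the time between the start of ventricular depolarization and the end of repolarization. *Gm7694* is annotated as a predicted protein-coding gene, and its function is not given in the sources used here.

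In GENCODE release M21 on GRCm38, *Nos1ap* (ENSMUSG00000038473.14) covers chr1:170302668-170589861 on the minus strand with 9 transcripts. Its full-length transcript, Nos1ap-202, has 10 exons with 3022 bases, of which 1509 are coding, and ends 11127 bases before *Gm7694* starts. *Gm7694* (ENSMUSG00000102752.1) covers chr1:170298199-170306332 with 1 transcript of 3 exons and 3827 bases, and its coding sequence is 810 bases long. Its start lies 283529 bases from the start of *Nos1ap*. The RefSeq model of *Nos1ap* ends 1992 bases beyond Nos1ap-202, which leaves 9135 bases to *Gm7694*. Only the short non-coding transcript Nos1ap-205 reaches into *Gm7694*. After an intron of 15899 bases, its exon 4 begins at the same base as exon 2 of *Gm7694*, which follows an intron of 3438 bases, and the transcripts share 171 bases from there on. These make up 2.36% of the exon bases of *Nos1ap* and 4.47% of those of *Gm7694*.

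**Figure D1:**
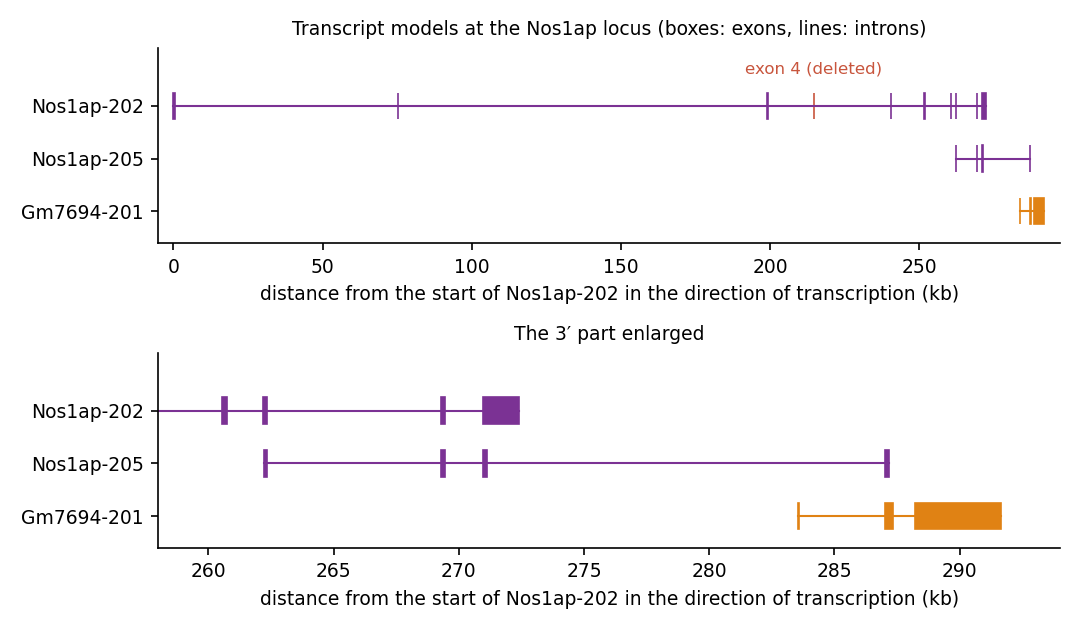
Transcript models of Nos1ap-202, Nos1ap-205 and Gm7694-201 by distance in kb from the start of Nos1ap-202, read in the direction of transcription, with boxes for exons and lines for introns. The lower panel enlarges the 3′ end, where the last exon of Nos1ap-205 starts together with exon 2 of *Gm7694*, and the deleted exon 4 lies far upstream of both.

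The exon that the null embryos lack is exon 4 of Nos1ap-202, chr1:170375248-170375306 on the minus strand, 59 coding bases. It is shown in capitals between the last 20 bases of exon 3 and the first 20 of exon 5. The allele also lacks intron sequence next to this exon, which is not shown. The second line shows the transcript without exon 4, in which exon 5 (capitals) follows exon 3. Exon 4 makes up 1.95% of the length of Nos1ap-202 and 0.814% of all exon bases of *Nos1ap*, and 6 of the 9 transcripts overlap it.
Exon 4 within Nos1ap-202: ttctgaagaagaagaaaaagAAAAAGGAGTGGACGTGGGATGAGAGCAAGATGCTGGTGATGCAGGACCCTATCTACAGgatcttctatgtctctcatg
Exon 3 joined to exon 5: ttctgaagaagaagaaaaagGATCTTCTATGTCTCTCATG

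The splice site that *Nos1ap* and *Gm7694* have in common is shown by the joins that lead into the shared bases. The exon that comes first is in lower case and the shared bases are in capitals. The capitals are the same in both lines, and the bases before them come from exon 3 of Nos1ap-205 and from the untranslated exon 1 of *Gm7694*. Coding sequence of *Gm7694* begins 11 bases into the shared stretch.
Nos1ap-205, exon 3 to exon 4: cgggcagccctttagTTGACCACAGTATGT
Gm7694-201, exon 1 to exon 2: ccttttctcggacagTTGACCACAGTATGT

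The sequences before the start of each gene, from the RefSeq promoter table (GRCm38.p6), show how the start regions of the pair differ. CpG dinucleotides, the letters C and G in this order, are in capitals. The window of *Nos1ap* spans chr1:170589862-170590099 and holds 31 CpG, and that of *Gm7694* spans chr1:170306333-170306582 and holds 2, both on the minus strand. Counted over the whole 300-base windows of the table, which extend past the start, *Nos1ap* has 39 CpG and 71.7% GC, and 95.6% of 32851 mouse promoter windows have fewer CpG. *Gm7694* has 3 CpG and 44.7% GC, and 23.3% of the windows have fewer. The medians of all windows are 7 CpG and 52.7% GC. The table holds a further start of *Nos1ap*, at which the window has 5 CpG and 47% GC.
Nos1ap: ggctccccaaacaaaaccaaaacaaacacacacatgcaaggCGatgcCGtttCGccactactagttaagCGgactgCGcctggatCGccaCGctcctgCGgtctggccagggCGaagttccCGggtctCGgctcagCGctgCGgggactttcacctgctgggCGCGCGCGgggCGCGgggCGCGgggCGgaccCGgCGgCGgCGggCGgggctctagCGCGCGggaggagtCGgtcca
Gm7694: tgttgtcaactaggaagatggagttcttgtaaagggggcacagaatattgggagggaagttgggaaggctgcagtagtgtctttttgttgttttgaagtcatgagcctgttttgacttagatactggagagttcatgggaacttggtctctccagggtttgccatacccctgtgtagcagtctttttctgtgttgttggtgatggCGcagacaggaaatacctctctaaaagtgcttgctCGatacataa

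The table gives one mean per gene and genotype, and the read pairs of single libraries were recovered from these means as whole numbers. They stand for the authors' gene-level estimates by RSEM and are called read pairs here. Library 1 of each genotype is the one with the largest size factor and library 5 the one with the smallest, which cannot be matched to the replicates named in the labels. The estimated depth was 11328000 to 14023000 read pairs assigned to genes. The labelled tissue matched its markers: all 10 cardiomyocyte markers were in the table, with wild-type means of 128162 normalized counts for *Myh7*, 98611 for *Actc1* and 61175 for *Myh6*, and their sum was 378913 in wild-type hearts and 386555 in *Nos1ap* null. The 4 neuronal markers with recovered counts summed to 617 in wild-type library 3, against 78.3 to 87.1 in the other wild-type libraries and 71.6 to 82.8 in the null libraries. The skeletal muscle and lung epithelium markers with counts were also highest in that library (33.6 and 17.3). Liver markers were highest in wild-type libraries 2 (75.5) and 4 (58.8), against 15.3 in wild-type library 3 and 14.1 to 29.4 in the null libraries. Of these lists, *Sftpc*, *Nkx2-1* and *Myf5* are not listed. Erythroid markers made up 0.702% of all normalized counts in wild-type hearts and 1.18% in *Nos1ap* null, a 1.70-fold difference between group means that could not be resolved by library. The part of these differences in the results on *Nos1ap* and *Gm7694* was not tested. Differences of *Nos1ap* and *Gm7694* are also given without library 3.

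*Nos1ap* had 169, 137, 124, 156 and 148 read pairs in wild-type libraries 1 to 5, and 47, 42, 44, 29 and 36 in null libraries 1 to 5. Divided by the size factors, which bring the libraries to one depth, these are normalized counts of 147, 133, 126, 161 and 153 in wild-type hearts and 42.3, 42.2, 44.4, 31.1 and 39.2 in *Nos1ap* null. The highest null library stood at 35.1% of the lowest wild-type library, so the genotypes did not overlap. The mean was 144 ± 14.4 in wild-type hearts and 39.8 ± 5.20 in null hearts (SD, n = 5), a level of 27.7% of wild type (SE 2.03 percentage points). The log2 difference, null minus wild type, was −1.83 (SE 0.121) on the scale of the normalized count plus 1, and −1.88 without wild-type library 3, which held the lowest wild-type count. The gene total does not separate exon 4 from the other exons, most of which the null allele keeps, so the 198 read pairs of the null libraries cannot be placed along the transcript. In these bulk samples, fewer cells that express a gene and less RNA per cell cannot be told apart.

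*Gm7694* had 389, 303, 302, 325 and 312 read pairs in wild-type libraries 1 to 5, and 136, 120, 124, 113 and 122 in null libraries 1 to 5. The normalized counts were 338, 293, 307, 335 and 323 in wild-type hearts and 122, 121, 125, 121 and 133 in *Nos1ap* null. These groups did not overlap either, since the highest null library stood at 45.3% of the lowest wild-type library. The mean was 319 ± 19.1 in wild-type hearts and 124 ± 4.98 in null hearts (SD, n = 5), or 39.0% of wild type (SE 1.3 percentage points). Its log2 difference was −1.35 (SE 0.0692), and −1.37 without wild-type library 3. No exon of *Gm7694* is removed in the null allele. In the M21 models, *Gm7694* shares 171 bases with *Nos1ap*, and whether the release used for mapping has the same overlap was not examined. Reads within shared bases could be assigned to either gene by the authors' counting, and this part of the count cannot be separated here.

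**Figure D2:**
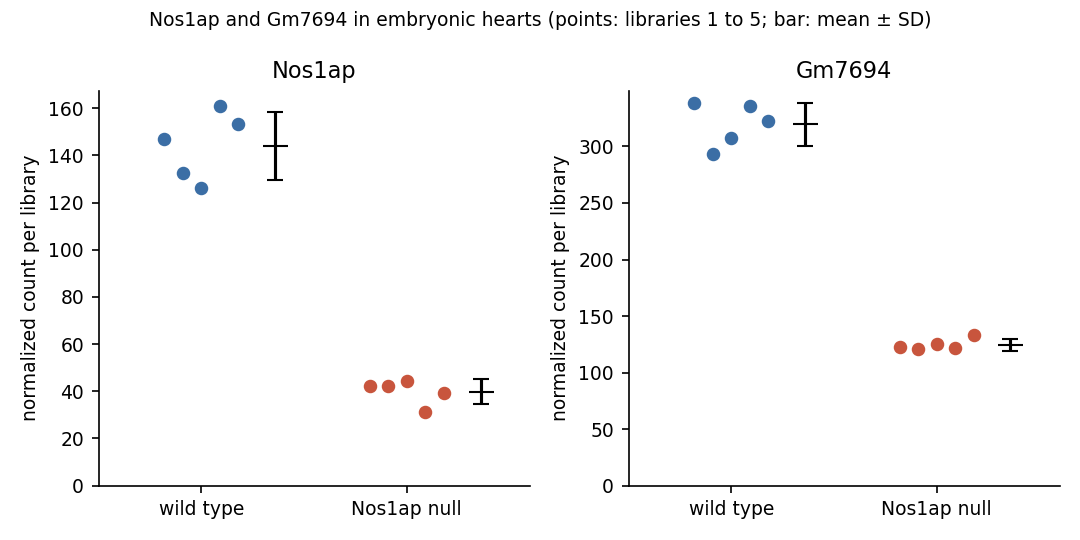
Normalized counts of *Nos1ap* (left) and *Gm7694* (right) in the 5 wild-type and 5 *Nos1ap* null libraries, as points in the order of library number, with the mean and SD beside them. The null libraries lie at 31.1 to 44.4 for *Nos1ap* and at 121 to 133 for *Gm7694*, below all wild-type libraries.

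In the comparison across genes, 10160 protein-coding genes (counts recovered in both genotypes, mean of at least 10) were tested with limma, and 0.0295% of them (3 genes) passed an adjusted p of 0.05, with 0.0197% (2 genes) lower in null hearts: *Gm7694* and *Nos1ap*, lower in *Nos1ap* null, and *Mt2*, a metallothionein that binds zinc and copper, higher by 1.20 on the log2 scale (SE 0.175, adjusted p = 0.00294 from limma). That *Nos1ap* and *Gm7694* are among them is what they were chosen for. Libraries of the genotypes were fully separate, with null lower, for 0.364% of the tested genes (37 genes, both among them). Nothing says that embryos came from separate litters, and p-values measure the spread between these samples. Of the 500 protein-coding genes nearest to *Nos1ap* in wild-type mean (130 to 160 normalized counts), the log2 ratio of group means ranged from −0.47 to 0.25, with a median of −0.01. For the 500 genes nearest to *Gm7694* (299 to 341), it ranged from −0.22 to 0.20. The ratios of *Nos1ap* and *Gm7694* were −1.85 and −1.36 on this scale, below all of these genes, a position that also follows from how they were chosen.

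Within a library, *Gm7694* was the more abundant gene by count. It had 2.30, 2.21, 2.44, 2.08 and 2.11 read pairs per *Nos1ap* read pair in wild-type libraries 1 to 5, and 2.89, 2.86, 2.82, 3.90 and 3.39 in null libraries 1 to 5. This ratio within a library needs no size factor. It was 2.23 ± 0.145 in wild-type hearts and 3.17 ± 0.467 in null hearts (SD, n = 5), and the lowest null library lay above the highest wild-type library. The log2 ratio was higher in *Nos1ap* null by 0.50 (SE 0.100), and by 0.53 without wild-type library 3. As both genes were chosen on this contrast, no test is given. Null library 4, which had the fewest *Nos1ap* read pairs (29), gave the highest ratio, and without it the log2 difference was 0.42. In absolute terms, the mean normalized count fell by 104 for *Nos1ap* and by 195 for *Gm7694*, so that 1.87 normalized counts of *Gm7694* were lost for each of *Nos1ap*.

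**Figure D3:**
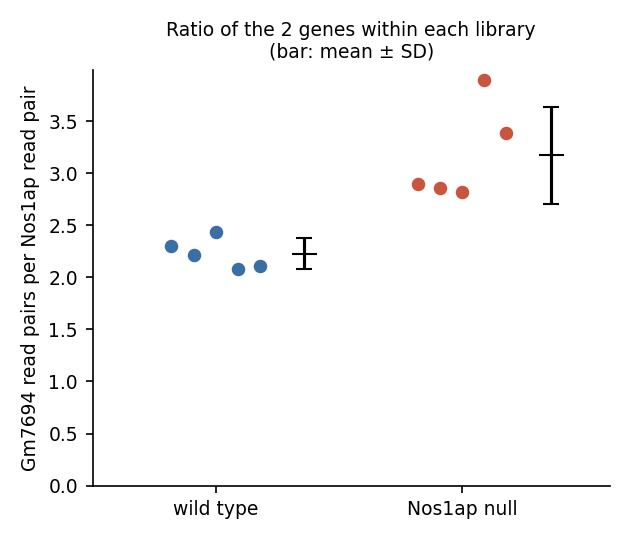
*Gm7694* read pairs per *Nos1ap* read pair in each library, with the mean and SD of each genotype beside the 5 points. Wild-type libraries lie between 2.08 and 2.44 and null libraries between 2.82 and 3.90, so the genotypes do not overlap.

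Levels of different genes were compared per kilobase of the longest annotated transcript, which has 3394 bases for *Nos1ap* (Nos1ap-201, a retained-intron transcript) and 3827 bases for *Gm7694*. On this scale, *Nos1ap* had 42.4 ± 4.24 normalized counts per kb in wild-type hearts and 11.7 ± 1.53 in *Nos1ap* null, and *Gm7694* had 83.5 ± 4.98 and 32.5 ± 1.30 (SD, n = 5). *Gm7694* was above *Nos1ap* in every library, by 1.98 ± 0.129 times in wild-type hearts and 2.81 ± 0.415 times in *Nos1ap* null. The wild-type order depended on the length used. With the mean length of the 9 *Nos1ap* transcripts (1546 bases), *Nos1ap* had 93.1 ± 9.30 normalized counts per kb in wild-type hearts and lay above *Gm7694*, at a ratio of 0.900 ± 0.0586, whereas in *Nos1ap* null it had 25.8 ± 3.37 and lay below. The difference between genotypes within a gene is the same with every length. Among 16911 protein-coding genes with a length, 44.0% had a lower level per kb than *Nos1ap* in wild-type hearts and 30.2% in *Nos1ap* null. For *Gm7694*, these shares were 57.1% and 40.2%.

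A list of 64 cardiac genes (ion channels and their subunits, calcium handling proteins, connexins, transcription factors, natriuretic peptides and sarcomere proteins) places these levels within the tissue. In wild type, 11 of the 64 genes had a lower level per kb than *Nos1ap* and 19 a lower level than *Gm7694*. In *Nos1ap* null, 4 and 10 did. The genes of the list nearest to *Nos1ap* per kb in wild type (42.4) were *Cmya5*, a muscle costamere protein, at 39.1, *Ank2*, which anchors ion transporters, at 47.3, and *Kcnj2*, an inward rectifier potassium channel, at 51.3. In *Nos1ap* null (11.7) its neighbours were the transient outward potassium channel genes *Kcnd3*, at 7.99, and *Kcnd2*, at 18.7, and the progenitor transcription factor gene *Isl1*, at 18.1. *Gm7694* lay next to the delayed rectifier gene *Kcnq1* (74.7) and the sinus node transcription factor gene *Shox2* (74.6) in wild type, and next to *Cacna1d* (31.7) and *Kcna4* (27.8) in *Nos1ap* null.

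**Figure D4:**
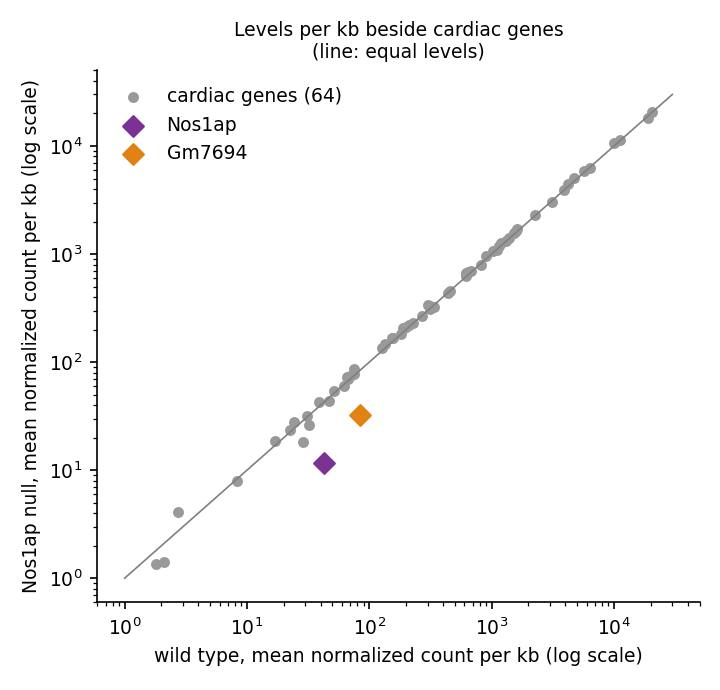
Mean normalized count per kb of the longest transcript in wild type (horizontal) and *Nos1ap* null (vertical), both on log scales, for 64 cardiac genes (grey), *Nos1ap* and *Gm7694*. The cardiac genes follow the line of equal levels, and *Nos1ap* (42.4 against 11.7) and *Gm7694* (83.5 against 32.5) lie below it.

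By count, 3 genes of the cardiac list had a wild-type mean close to that of *Gm7694* (0.874 to 1.13 times), and none was as close to *Nos1ap*. *Kcnj2* had 279 ± 54.5 normalized counts in wild-type hearts and 295 ± 42.9 in *Nos1ap* null, *Kcnj3*, a subunit of the acetylcholine-activated potassium channel, 361 ± 57.9 and 389 ± 39.2, and *Cacna1d*, an L-type calcium channel of pacemaker cells, 299 ± 18.1 and 306 ± 12.1 (SD, n = 5). Their log2 differences were 0.08 (SE 0.135), 0.11 (SE 0.103) and 0.03 (SE 0.0601), none of which passed the test (adjusted p = 0.999 for each, from limma). Over the whole list, 21 genes could be tested and 0 passed in either direction by limma, against 0.0295% of all genes tested. Genes with a mean of 1000 or more in either genotype were not tested, so this count leaves out strongly expressed genes such as *Myh7*. Some genes with lower means were left out too, because their counts were not recovered. Among them were *Kcne1* (group means of 487 and 528), *Ank2* (676 and 625) and *Shox2* (230 and 266). *Scn4b* was left out for a mean under 10. Unadjusted, 2 of the 21 had a p under 0.05 by limma, against 3.69% of all genes tested (375 of 10160), and both are named after their values were seen. *Isl1* had 72.5 ± 30.7 and 45.5 ± 6.37 normalized counts (SD, n = 5), with 125 in wild-type library 3. Its log2 difference was −0.59 (SE 0.199), and −0.37 (SE 0.152) without that library. The pacemaker channel gene *Hcn4* had 401 ± 32.3 and 444 ± 12.5 (SD, n = 5), with a log2 difference of 0.15 (SE 0.0575), and 0.11 (SE 0.0575) without wild-type library 3. The median log2 difference of the 21 genes was 0.06.

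The spread between libraries of one genotype is not independent of the choice of the pair, since a small spread favours a call, and it is given as a description. The coefficient of variation of *Nos1ap* was 9.98% in wild type, near the median of 9.59% for the 500 tested genes of nearest mean, and 13.1% in *Nos1ap* null, where the median was 17.6%. For *Gm7694* it was 5.97% in wild type, against a median of 6.84%, and 4.0% in *Nos1ap* null, against 9.92%. Only 1.6% of the 500 genes near *Gm7694* in the null libraries varied less than it did. Counting error alone, taking the estimated read pairs as plain counts, would give 8.25% and 15.9% for *Nos1ap* and 5.54% and 9.02% for *Gm7694*. The null libraries of both genes spread less than that figure. Genes with widely differing counts are harder to recover from a mean, and the medians hold for recovered genes only.

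Across the 10 libraries, the genes with the most similar log2 profile were each other. Pearson's r of *Nos1ap* and *Gm7694* was 0.99, a value set by the gap between genotypes. Next to *Nos1ap* came *Gfod2* (r = 0.915), *Grid1* (0.909), *Glyctk* (0.874) and *Mon1b* (0.868). Next to *Gm7694* came *Grid1* (0.927), *Glyctk* (0.909), *Gfod2* (0.885) and *Tbc1d20* (0.883). These genes were lower in *Nos1ap* null by log2 differences from −0.66 (*Grid1*) to −0.09 (*Tbc1d20*), and none passed the test by limma. Once each genotype was centred on its own mean, r between *Nos1ap* and *Gm7694* was 0.450. On that scale, *Gm7694* ranked 894th of the genes compared with *Nos1ap* and *Nos1ap* ranked 791st for *Gm7694*. The closest genes were then *Dnaja3* (0.945), *Aard*, *BC052040* and *Zkscan5* for *Nos1ap*, and *Phf1* (0.936), *Fbxo25*, *Hsd3b7*, *Raet1e* and *Plekhf1* for *Gm7694*. All these profiles come from the same 10 libraries and share their size factors.

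Other genes around the locus were examined for a difference of the same kind. Within 1 Mb of either end of *Nos1ap*, apart from *Gm7694*, the table lists 56 genes, 43 of them protein coding, of which 24 could be tested. By limma 0 of them passed, against 0.0295% of all genes, and the voom form of limma also gave 0. The median log2 difference was −0.01. Beyond the 3′ end, the nearest tested genes were *Uhmk1*, a kinase gene (780 ± 60.3 normalized counts in wild-type hearts and 813 ± 17.8 in *Nos1ap* null, SD, n = 5), *Uap1*, which makes UDP-N-acetylglucosamine (578 ± 26.5 and 559 ± 21.9), and *Ddr2*, a collagen receptor (225 ± 40.8 and 201 ± 39.2). Their log2 differences were 0.06, −0.05 and −0.17. *Sh2d1b1*, only 15.9 kb away, was hardly detected, with a mean of 0.584 in wild-type hearts and 0 in *Nos1ap* null. Beyond the 5′ end, *Olfml2b*, at 54.7 kb, had group means of 769 and 813 and could not be tested, and *Atf6*, a sensor of stress in the endoplasmic reticulum, had 611 ± 17.0 and 636 ± 25.9 (SD, n = 5).

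Of the 24 genes, 1 had an unadjusted p under 0.05 by limma and by voom, a share near the 3.69% and 3.54% of all genes tested. This was *Rgs4*, which shortens signalling by G proteins and lies 555 kb beyond the 3′ end. It had 66.1, 65.8, 138, 76.4 and 62.1 normalized counts in wild-type libraries 1 to 5 and 52.2, 21.1, 43.4, 71.9 and 45.7 in null libraries 1 to 5. The groups overlapped, and wild-type library 3 was far above the others. The log2 difference was −0.82 (SE 0.323, adjusted p = 0.999 from limma), and −0.61 (SE 0.270) without library 3. Its neighbour *Rgs5*, a pericyte gene of the same family, had group means of 697 and 496 and could not be tested. The remaining 23 genes had log2 differences from −0.32 (*Fcgr3*) to 0.21 (*Cfap126*).

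**Figure D5:**
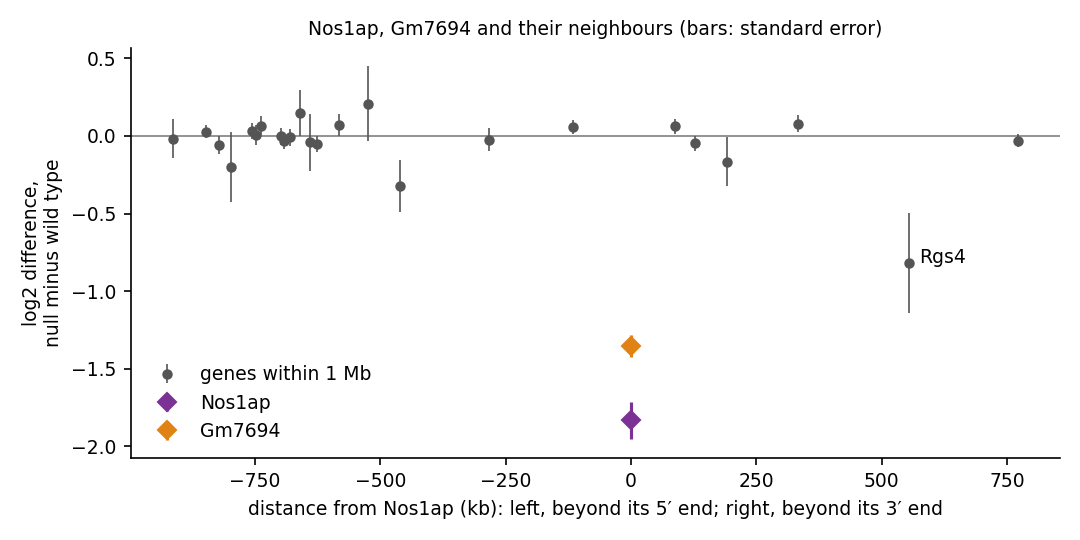
Log2 difference, null minus wild type, of the 24 tested genes within 1 Mb of *Nos1ap* by their distance in kb from its nearer end, with *Nos1ap* and *Gm7694* placed at 0. Bars are standard errors, and the neighbours lie between −0.82 (*Rgs4*) and 0.21 (*Cfap126*), above *Gm7694* at −1.35 and *Nos1ap* at −1.83.

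The arrangement of *Nos1ap* and *Gm7694*, with exons that overlap on one strand, is shared by 312 pairs of tested genes. The median of the smaller absolute log2 difference of a pair was 0.04. *Nos1ap* and *Gm7694* were the only pair with both genes called, which follows from how they were chosen. In 1 further pair both genes differed by over 0.5 on the log2 scale, *Cadm3* (−0.56) and *Ackr1* (0.68), named after their values were seen, and these moved in opposite directions and did not pass the test. Among 1163 pairs whose ends lie within 5 kb or whose exons overlap, 1 pair had both genes called.

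A list of 25 genes, called partners here, holds genes for NOS1AP-binding proteins, for related signalling proteins such as *Nos2* and *Prkg1*, and for channels. All are listed in the data, and 12 could be tested. *Nos1*, *Scrib*, *Cacna1c* and *Kcnh2* could not, so the counts that follow do not cover them. By limma 0 of the 12 passed, against 0.0295% of all genes, and 0 had an unadjusted p under 0.05, with limma or with voom, against 3.69% and 3.54% of all genes. Their median log2 difference was −0.02 and the smallest adjusted p from limma was 0.999. Among the nitric oxide synthase genes, *Nos1*, whose product binds NOS1AP, was barely detected, at 6.24 ± 7.91 normalized counts in wild-type hearts and 4.17 ± 2.05 in *Nos1ap* null. The inducible *Nos2* had 19.2 ± 4.72 and 17.3 ± 5.50 (SD, n = 5), and the endothelial *Nos3* had group means of 1111 and 1098. *Rasd1*, a Ras-like protein that NOS1AP binds, had 84.9 ± 19.0 and 78.9 ± 14.7 (SD, n = 5).

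The scaffold genes *Dlg1*, *Dlg2*, *Dlg3* and *Dlg4*, whose proteins carry PDZ domains, had log2 differences of 0.03, −0.03, −0.05 and −0.02. *Dlg4*, for example, had 472 ± 24.6 and 466 ± 55.2 normalized counts (SD, n = 5). For the cell polarity genes *Vangl1*, *Vangl2* and *Prickle2*, they were 0.05, −0.02 and −0.01. The kinase genes *Mapk14* (p38) and *Prkg1* (the cGMP-dependent kinase) had −0.02 and 0.14. The lowest value was that of *Syn1*, a synaptic vesicle protein, at −0.51 (SE 0.715). It had 78.4 normalized counts in wild-type library 3, against 1.94 to 11.4 in the other wild-type libraries and 4.30 to 8.04 in the null libraries, and without that library its log2 difference was 0.25 (SE 0.399). Of the genes without recovered counts, *Scrib*, a polarity scaffold that binds NOS1AP, had group means of 1222 and 1216, and the channel genes *Cacna1c* and *Kcnh2* had 2376 and 2412, and 1851 and 1835.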

How the data were processed

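The authors trimmed reads with Trimmomatic 0.36, mapped them with STAR within RSEM 1.2.31 to GENCODE transcripts on GRCm38, and tested gene-level counts with DESeq 1.24.0. The signal values deposited by the authors are means per genotype of read counts divided by size factors, which leave single libraries unseen. The table's fold changes, their log2 values and its p-values are the authors' own comparison and were not used.

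Size factors and whole read counts of single libraries were recovered from the group means by a lattice search. Means of 1000 or more were not searched, so genes with such a mean in either genotype were not tested. Among means under 1000, the search recovered 98.2% in wild type (20190 of 20551) and 98.7% in *Nos1ap* null (20278 of 20535). These shares are over genes of all types. Of the 16973 protein-coding genes, 13834 had counts recovered in both genotypes. The rest include genes with means of 1000 or more and some with lower means. In simulated data, 0 of 19283 and 19357 recovered sets were wrong. The simulation gave every gene the same small spread beyond counting error, so genes of wider spread, such as *Syn1*, are not covered by it. At most 5.17e-05 other sets were expected by chance for *Nos1ap* or *Gm7694*. Intervals of counts cover counting error only. Depth, estimated from the size factors, was 11328000 to 14023000 read pairs per library.

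The test was limma 3.58.1 (R 4.3.3) over the 10160 protein-coding genes with counts in both groups and a mean of at least 10, on log2 of the normalized count plus 1, with trended, robust moderation and Benjamini-Hochberg adjustment at 0.05. In simulated data with many genes changed at once, it called 74%, 90% and 95% of genes changed by 0.5, 1 and 1.5 on the log2 scale. The adjustment is stricter where few genes differ, as in these data, so these shares do not carry over to the comparison above. Group columns were assigned by the authors' column legend. Positions and lengths came from GENCODE M21, which has 99.4% of the listed genes, and not from the release that was used for mapping. Python 3.11.15 with pandas 2.3.3 was used for the rest.

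*Nos1ap*, *Gm7694*, the lists and the tests were chosen with earlier results of these data known. Genes were named if they were one of the pair, tested partners, within 1 Mb, cardiac genes with a wild-type mean within 1.25 times that of either gene, among the 5 genes most like each, or called, and other cardiac genes and marker genes were chosen after their values were seen. Alternatives changed the pseudocount, the fit, the filter, the size factors, the gene types, the thresholds, the window, the lengths and the libraries. Neighbours without a name in the text are covered by their number and range. One gene that this rule selects is not reported here.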

Additional observations from a re-analysis of the deposited data

Results flagged for a closer look

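Of 90 groups of 5 libraries examined, 8 had a library far from the other 4, by the ratio of its gap to the whole range, where chance gives about 1 in 20. None of the 8 concerned *Nos1ap*, *Gm7694* or their ratio. Wild-type library 3 was the high one for the summed neuronal markers (617 against at most 87.1, ratio 0.984), lung epithelium markers (17.3 against at most 5.22, ratio 0.900) and skeletal muscle markers (33.6 against at most 5.81, ratio 0.897). The same library was high for *Syn1* (78.4 against at most 11.4, ratio 0.877) and *Rgs4* (138 against at most 76.4, ratio 0.813). Among null libraries, *Vangl2* was low in library 2 (439 against at least 523, ratio 0.797), *Hsd17b7* was high in library 5 (627 against at most 558, ratio 0.724), and *Alyref2* was high in library 1 (94.5 against at most 75.2, ratio 0.717).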

How the results depend on the processing

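Of 89 values computed under alternatives, 83 kept their direction and lay within the limits set for a change. The level of *Gm7694* per kb relative to *Nos1ap*, 1.98 in wild type and 2.81 in *Nos1ap* null with the longest transcript, was 4.22 and 6.01 with the union of exons. With the mean transcript length it was 0.900 and 1.28, which turned the order in wild type. The rank of each gene in likeness to the other went from 1 to 894 and 791 after centring. With each library left out in turn, the log2 difference ranged from −1.88 to −1.75 for *Nos1ap*, from −1.38 to −1.33 for *Gm7694*, and from 0.42 to 0.54 for their ratio, and 3 to 4 genes were called. *Nos1ap*, *Gm7694* and *Mt2* were called in every fit, and for the first 2 this follows from how they were chosen. They were joined by *Dsc2* without wild-type library 1 (adjusted p = 0.0464 from limma) and by *Mt1* without wild-type library 4 (adjusted p = 0.0381 from limma). The counts of called partners and neighbours were 0 in all of these fits, with voom, and in windows of 0.5 and 2 Mb. No paired analysis was possible, because the labels name no pairs of embryos and the deposited group means carry no replicate numbers. Of the 25 partner genes, 13 lacked recovered counts or had a mean under 10 and were not tested, and reads in the shared 171 bases cannot be separated.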
